A study of Mus musculus with 6 samples.

Results

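The baseline transcriptome of E10.5 control erythroblasts, the nucleated precursors of red cells in the mouse embryo, was taken from the 3 libraries of the series whose titles name them as controls, out of 6 libraries in all. The series concerns Setd8, a histone H4 lysine methyltransferase, and its loss from erythroblasts. Controls 1 and 3 carried EpoRCre, a Cre recombinase under the erythropoietin receptor locus, with Setd8 +/+. Control 2 was Setd8 fl/fl with EpoR WT, so it held the loxP-flanked Setd8 alleles but no Cre. All 3 embryos or pools were on the C57BL/6 strain. Live cells positive for both Ter119, an erythroid surface marker, and CD71, the transferrin receptor, were sorted by flow cytometry, and polyadenylated RNA was sequenced. The sample labels call the source fetal liver, whereas the design text of the series names blood of the embryo. The labels do not say how many embryos went into each library, and spread between libraries may be technical in part. Control 2 cannot share an embryo with the others, as its labelled genotype differs. The title of control 3 ends in a letter and those of controls 1 and 2 do not, and the 2 kinds are treated as separate title sets, with a single library in the lettered one. Every level below is given in the order control 1, control 2 and control 3, in CPM, counts scaled so that all reads assigned to genes in a library sum to 1000000, unless another scale is named.

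Erythroblasts that circulate in the mouse embryo at this age are mostly primitive cells of yolk sac origin. They enter the blood as nucleated cells, divide a few more times there, and fill with hemoglobin. Its chains include embryonic ones, the alpha-like chain of Hba-x and the beta-like chains of Hbb-y and Hbb-bh1. Definitive erythroblasts, which arise later in the fetal liver, use adult chains. Making hemoglobin calls for heme, which is assembled in mitochondria and cytosol from glycine, succinyl-CoA and iron, and the genes for these steps share the transcription factor GATA1, with KLF1 acting at CACCC boxes of the beta-like genes.

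The stretches just upstream of 3 genes that the results turn on are shown because these genes stand for the alpha-like chain, the beta-like chain and heme synthesis. They are the 250 bases before the start site in RefSeq, build GRCm38.p6, read 5′ to 3′ along the gene. Capitals mark the GATA motif (AGATAA, with A or T as its first base and A or G as its last), the CACCC motif (CCACCC) and CCAAT on either strand, and TATAAA on the gene's own strand. CACCC copies in the Alas2 stretch overlap one another.
Hbb-y, chr7:103853208-103853457, minus strand: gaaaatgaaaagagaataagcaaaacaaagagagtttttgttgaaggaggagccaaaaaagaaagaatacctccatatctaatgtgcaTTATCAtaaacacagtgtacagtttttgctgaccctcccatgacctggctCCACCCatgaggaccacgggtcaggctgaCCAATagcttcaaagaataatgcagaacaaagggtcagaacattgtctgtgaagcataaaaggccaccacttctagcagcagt
Hba-x, chr11:32276350-32276599, plus strand: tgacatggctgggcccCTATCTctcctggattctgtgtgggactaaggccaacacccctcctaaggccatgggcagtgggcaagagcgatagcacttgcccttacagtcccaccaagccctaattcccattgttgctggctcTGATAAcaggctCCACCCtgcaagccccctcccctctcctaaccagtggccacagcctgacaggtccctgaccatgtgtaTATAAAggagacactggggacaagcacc
Alas2, chrX:150547167-150547416, plus strand: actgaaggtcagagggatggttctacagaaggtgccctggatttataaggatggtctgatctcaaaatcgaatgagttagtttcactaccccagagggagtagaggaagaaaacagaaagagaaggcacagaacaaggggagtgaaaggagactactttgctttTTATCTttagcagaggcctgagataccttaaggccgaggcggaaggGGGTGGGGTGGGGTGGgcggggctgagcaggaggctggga
The Hbb-y stretch held 1 GATA match on the opposite strand, 162 to 157 bases before the start, 1 CACCC match at 112 to 107 and 1 CCAAT match at 83 to 79. In Hba-x there were 2 GATA matches, at 234 to 229 and 108 to 103 bases before the start, a CACCC match at 96 to 91 and a TATAAA match at 28 to 23. Upstream of Alas2 lay 1 GATA match at 86 to 81 and 3 overlapping CACCC matches between 40 and 25 bases before the start. Of 27025 promoters of the same length, 27.1% held a GATA match, 27.7% a CACCC match, 34.5% a CCAAT match and 8.12% a TATAAA match. Among the 85 promoters found for genes of the erythroid lists, 29.4% held a GATA match and 47.1% a CACCC match, and among the 236 found for the 300 genes with the highest counts, 21.6% and 31.8%. A match of letters is a description and not a site of binding.

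Reads assigned to genes numbered 7756940, 21434719 and 19806956. The tables list 23284 genes, of which 12686, 13509 and 13451 had reads, and 3 reads correspond to 0.387, 0.14 and 0.151 CPM. Reads assigned to no feature made up 42.9% of the table of control 1 and 7.72% of that of control 2, and the table of control 3 has no such summary lines. It also lacks the header line of the other tables and the 25 symbols that had turned into dates there, so it was not written in the same way. Over the 10114 genes at 1 CPM or more in at least 1 library, 85.0% lay within 2-fold of each other in controls 1 and 2. Between control 3 and controls 1 and 2 the shares were 60.3% and 62.2%. Control 3 thus stood apart from the other pair, although it shares its labelled genotype with control 1, and the title set, this single library and the making of its table cannot be told apart. In edgeR's quasi-likelihood test of control 3 against controls 1 and 2, which has 1 residual degree of freedom, 1446 of 10574 tested genes (13.7%) were higher in the lettered library and 811 (7.67%) lower at an adjusted p below 0.05. The spread in this test comes from controls 1 and 2 alone, which differ in labelled genotype, and control 3 is assumed to vary as they do, so its adjusted p values say nothing of the spread among lettered controls. The shares of 13.7% and 7.67% are the background for every count of differing genes given below, and over all tested genes the log2 ratio had a median of 0.0069.

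Setd8 itself was present in all 3 controls, at 64.3, 65.5 and 221 CPM. Controls 1 and 2 differed little, and it was higher in control 3, by 1.47 on the log2 scale (SE 0.19, edgeR adjusted p = 2.17e-05). Epor, the gene of the receptor for erythropoietin and the locus that drives Cre, stood at 45.5, 103 and 172 CPM. Control 2, the library with EpoR WT, lay between the Cre carriers, so the carriers enclosed it. Xist, the RNA that coats the inactive X chromosome, had 5, 3913 and 2240 reads. The Y-linked genes Ddx3y, Eif2s3y and Uty had 298, 372 and 84 reads in control 1, 8, 0 and 0 in control 2, and none in control 3. Control 1 thus had the Y-linked transcripts and controls 2 and 3 had Xist, a split that does not run along the title sets. Controls 1 and 3, which share a labelled genotype, therefore came from different embryos or pools.

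All 6 marker genes of the erythroid lineage were abundant in every library. Hbb-y, Hbb-bh1 and Hba-x were the 3 genes with the most reads in each. Gata1, the factor that directs erythroid gene expression, stood at 378, 440 and 350 CPM. Alas2, the erythroid enzyme that starts heme synthesis, stood at 2539, 2642 and 2483 CPM, and Slc4a1, the anion exchanger band 3 of the red cell membrane, at 1568, 1636 and 2081 CPM. For these genes the libraries differed by less than 2-fold, and the labelled cell type matched its markers. The hepatocyte markers gave no such signal. Of 22 markers of hepatocytes, 0 reached 1 CPM in all libraries, their summed level was 1.42, 1.77 and 6.06 CPM, and Alb, the albumin gene, had no read in any library. Only 3 reached 1 CPM in any library. Afp (2.47 CPM) and Krt18 (1.21 CPM) did so in control 3, where alone they had reads, and Krt8 (1.07 CPM) in control 2.

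Embryonic globin transcripts took between 37.1% and 45.2% of all reads assigned to genes. The 11 globin genes of the tables together held 45.18% (exact 95% interval 45.145 to 45.215), 44.41% (44.389 to 44.431) and 37.10% (37.078 to 37.121) of the counts, intervals that cover counting error only. Genes other than globins held 54.8%, 55.6% and 62.9%. Adult alpha and beta globin transcripts are unique in only part of their sequence, so reads of theirs may be missing. These shares thus hold for assigned reads alone. Controls 1 and 2 lay within 1 percentage point of each other and control 3 lower than both. Because globin messages are short, their share is larger per length: with each count divided by the length of the gene's principal transcript, globins made up 66.9%, 66.5% and 61.8%.

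**Figure D1:**
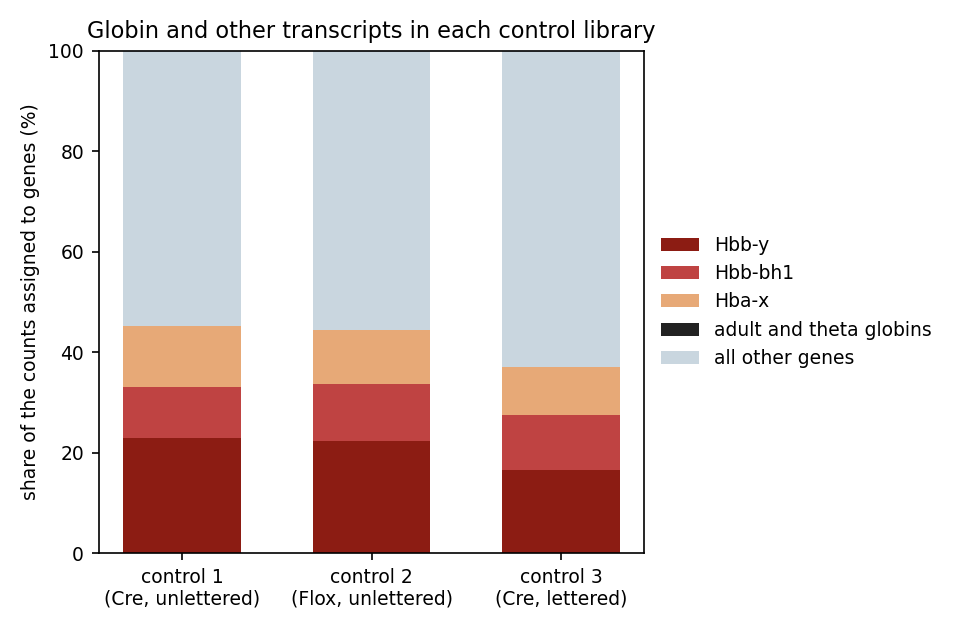
Stacked bars give the share of counts assigned to genes (percent, vertical axis) for each embryonic globin, for the adult and theta globins together and for all other genes in each of the 3 control libraries. Globins reach 45.18%, 44.41% and 37.10%, and the adult and theta globins are too few to be seen at this scale.

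Hbb-y, the embryonic epsilon-type beta chain, was the leading transcript in each library, with 22.9%, 22.2% and 16.5% of all counts. Hbb-bh1, the other embryonic beta-like chain, held 10.2%, 11.4% and 10.95%. Hba-x, the embryonic zeta chain and an alpha-like partner, held 12.1%, 10.8% and 9.60%. The lower globin share of control 3 was thus mostly a matter of Hbb-y, while its Hbb-bh1 share lay between those of the other 2 libraries. Among globin counts alone, Hbb-y made up 50.6%, 50.1% and 44.5% and Hbb-bh1 22.5%, 25.6% and 29.5%. Per length, Hbb-y exceeded Hbb-bh1 by 2.18, 1.90 and 1.46 times, in the same order in all 3 libraries. In the edgeR test, scaled to the bulk of genes, Hbb-y was lower in control 3 by a log2 ratio of -0.75 (SE 0.08, adjusted p = 2.83e-06), Hba-x by -0.56 (SE 0.09, edgeR adjusted p = 0.000716) and Hbb-bh1 by -0.27 (SE 0.08, edgeR adjusted p = 0.0238). That last call rests on the scaling, since on plain CPM control 3 lay between controls 1 and 2.

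Among globin transcripts that could be counted, the beta-like ones outnumbered Hba-x. The beta-like genes together held 73.1%, 75.7% and 74.1% of the globin counts. Per length, they exceeded Hba-x by 3.48, 3.98 and 3.67 times. Adult alpha globin would add to the alpha side but was listed at 0. Hba-a1 and Hba-a2 had no read in any library. Only 32.5% of the 50-base words of the Hba-a1 transcript and 13.1% of those of Hba-a2 occur in no other transcript, and reads without a unique alignment were not assigned to genes, so these zeros cannot be read as a lack of adult alpha globin and the ratio is an upper limit in that respect. The 3 embryonic globin transcripts were unique in 100% of their words.

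Few reads were assigned to adult beta globin next to the embryonic chains. The adult beta gene of the tables, named Beta-s there and matched to Hbb-bs by a RefSeq synonym, had 1283, 3003 and 6914 reads, or 165, 140 and 349 CPM. The embryonic beta-like genes outnumbered it by 1996, 2397 and 787 times in counts. Its transcript was unique in 34.2% of its 50-base words, so part of its reads may be missing. Beta-s was higher in control 3 by a log2 ratio of 0.89 (SE 0.16, edgeR adjusted p = 0.0006), while the embryonic chains were lower there. Hbb-b1 had 1, 1 and 4 reads and Hbb-b2 none, but neither had a transcript whose unique words could be counted. Hbb-bt, also on the list of adult globins, matched no symbol, so the level of adult beta globin rests on Beta-s. Hbq1b, a theta globin with no known part in hemoglobin, was steady at 118, 110 and 112 CPM, and Hbb-bh2 lay at 11.5, 9.10 and 6.77 CPM. Hbq1a stayed below 1 CPM in each library, with 7 reads in all 3. The globins of other tissues were at or near 0: Mb (myoglobin) and Ngb (neuroglobin) had no read, and Cygb (cytoglobin) 0.129, 0.0467 and 0 CPM.

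Outside the globins the most abundant transcripts belonged to iron storage, carbon dioxide handling, defence against peroxide, protein synthesis and heme synthesis. Of the 30 genes with the most counts in each title set, 15 were shared. Ftl1, the ferritin light chain, stood at 5772, 6358 and 9259 CPM. Only 9.36% of its 50-base words are unique, so its count is uncertain. Car2, the carbonic anhydrase of red cells, stood at 9790.2, 7663 and 4407 CPM, highest in the unlettered pair. Gpx1, a glutathione peroxidase, stood at 3701, 3402 and 6561 CPM, and Prdx2, the peroxiredoxin typical of red cells, at 4367, 3907 and 3987 CPM. Both enzymes remove peroxides, and both were among the 10 highest genes by count in each title set.

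Protein synthesis and folding supplied most of the remaining shared genes. Eef1a1, which brings aminoacyl-tRNA to the ribosome, stood at 7048, 6741 and 2818 CPM. Rplp0 and Rpl4, proteins of the large ribosomal subunit, stood at 3815, 3329 and 2013 CPM and at 2765, 2820.3 and 1847 CPM. The chaperones Hspa8 (4915, 5720 and 3490 CPM) and Hsp90ab1 (2348, 2291 and 1423 CPM) were also shared. All 5 of these genes were lower in control 3 than in both unlettered libraries. Their unique 50-base words made up 39.4% for Eef1a1, 58.2% for Rplp0, 83.5% for Rpl4, 25.2% for Hspa8 and 95.5% for Hsp90ab1. The part that read assignment played in the lower counts was not tested. Alas2 of heme synthesis was shared as well. Rn45s, the ribosomal RNA precursor, was counted at 2994, 4070.0 and 4297 CPM although the RNA was selected for poly(A) tails. Counts favour long transcripts, and per length the order after the 3 globins was Ftl1, Gpx1, Car2, Fth1, Rpl41 and Mt1, with values of 8373, 5014, 3770.1, 3720, 2985 and 2868 on a scale that sums to 1000000.

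**Figure D2:**
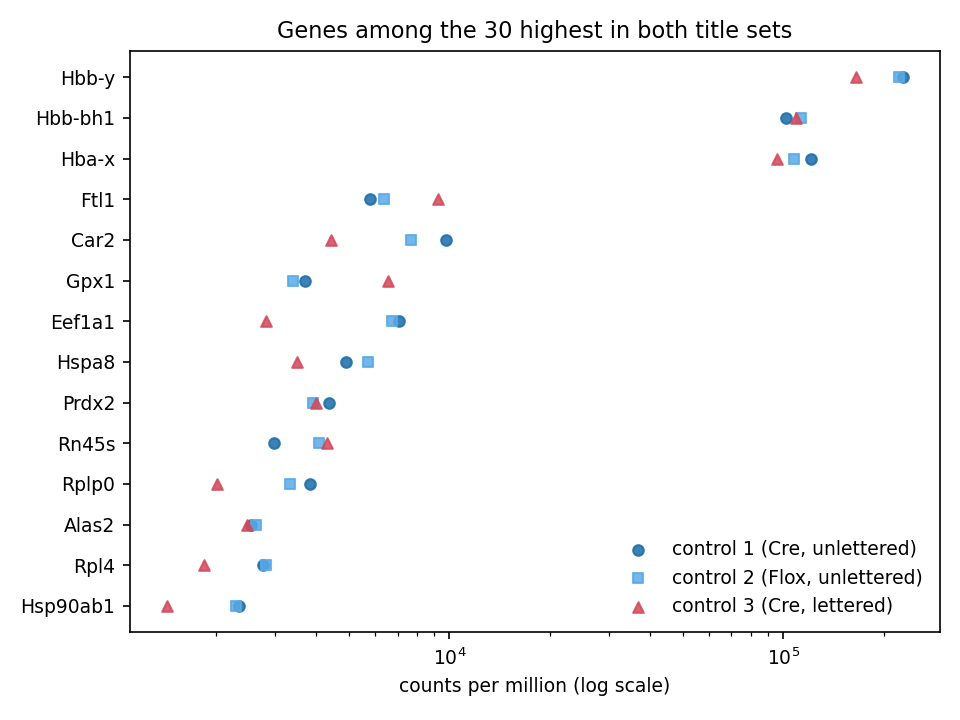
Points give the CPM (log scale, horizontal axis) of 14 of the 15 genes that were among the 30 highest in both title sets, one symbol per control library. The 3 embryonic globins lie between 95977 and 228500 CPM, and the other genes lie at or below 9790.2 CPM.

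Other genes reached the 30 highest of 1 title set alone, 15 in each. Fth1, the ferritin heavy chain, stood at 1584, 2114 and 8416 CPM and was the fifth gene of control 3. Actb, cytoplasmic actin, stood at 3179, 3669 and 542 CPM and was lower in control 3 by a log2 ratio of -2.96 (SE 0.11, edgeR adjusted p = 1.51e-10). Atp5b, the catalytic subunit of ATP synthase, stood at 525, 632 and 2102 CPM. Mt1, a metallothionein that binds zinc, differed little, at 1740, 1410 and 1444 CPM, and missed the 30 highest in the unlettered pair.

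The counts were concentrated in very few genes. The 3 embryonic globins alone held 45.2%, 44.4% and 37.1%, and the 30 highest genes of each library 54.0%, 53.2% and 45.2%. A total of 13, 16 and 74 genes supplied 50% of the counts, and 729, 747 and 1374 genes supplied 80%. Without the globins the libraries were much flatter: 324, 328 and 555 genes were needed for 50% of the remaining counts. Controls 1 and 2 were alike in each of these measures and control 3 was less concentrated with and without globins. Few genes were very abundant, with 77, 82 and 61 genes at 1000 CPM or more, while 4522, 4419 and 5019 genes lay between 10 and 100 CPM.

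**Figure D3:**
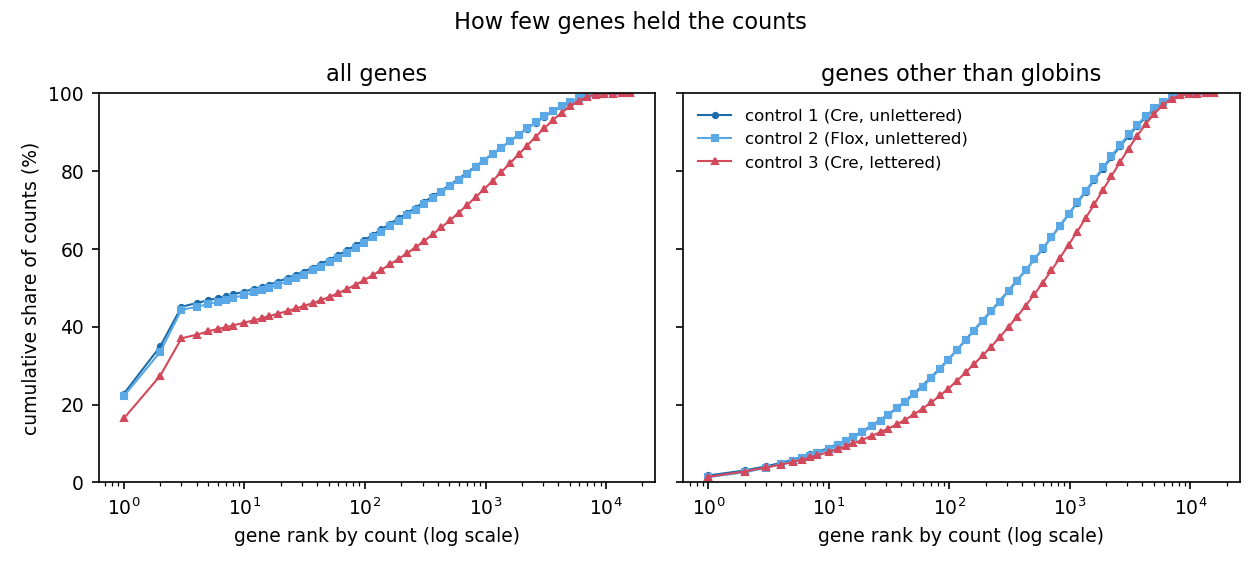
Lines give the cumulative share of counts (percent, vertical axis) against gene rank by count (log scale, horizontal axis), for all genes on the left and for genes other than globins on the right, one line per control library. The first 3 genes reach 45.2%, 44.4% and 37.1% on the left, and control 3 runs below controls 1 and 2 over most ranks on both sides. Among genes other than globins the lines of controls 2 and 3 cross at the first ranks, and all lines meet near 100% at the last ones.

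Every enzyme of the heme pathway was expressed. All 8 genes reached 1 CPM in each library, and their summed level was 9058, 9331 and 11216 CPM. The first steps were abundant per length: Alad, which joins aminolevulinate into porphobilinogen, had a mean per-length value of 1586 and Alas2 1301, whereas Ppox, the oxidase of the penultimate step, had 131. Alad stood at 2484, 2695 and 1265 CPM. Urod, a decarboxylase of the middle of the pathway, stood at 639, 600.1 and 861 CPM. The 2 widest differences between title sets were at Cpox and Fech. Cpox, the mitochondrial oxidase before Ppox, stood at 404, 364 and 1857 CPM, and Fech, which inserts iron into protoporphyrin, at 248, 247 and 1710.1 CPM. Both were higher in control 3, with log2 ratios of 1.98 (SE 0.11) and 2.49 (SE 0.11) and edgeR adjusted p values of 3.3e-09 and 2.23e-10. Alad, Uros and Alas2 were lower there, so 2 of the 8 genes were higher and 3 lower, against 13.7% and 7.67% of all genes. For Alas2 the plain CPM of the 3 libraries differed little, and the call (log2 ratio -0.36, SE 0.09, edgeR adjusted p = 0.00831) rests on the scaling.

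Iron and heme carriers were nearly all present. Of 20 genes, 19 reached 1 CPM in every library, and Hrg, a plasma protein that binds heme, had no read. Slc25a37, mitoferrin, which brings iron into the mitochondrion, stood at 2354, 2021 and 1042 CPM, and Tfrc, the transferrin receptor used for the sort as CD71, at 347, 381 and 481 CPM. Blvrb, a biliverdin reductase, stood at 893, 873 and 752 CPM. Between title sets, 9 of 19 tested genes were higher and 4 lower in control 3, against 13.7% and 7.67% of all genes, and the median log2 ratio was 0.72. Glrx5, which serves iron-sulfur cluster assembly, stood at 65.1, 66.3 and 1338 CPM, a log2 ratio of 4.05 (SE 0.12, edgeR adjusted p = 2.87e-12). Iscu, the scaffold of those clusters, stood at 5.67, 4.53 and 133 CPM. Abcb10, a mitochondrial transporter needed for heme synthesis, stood at 222, 186 and 949.9 CPM, while Slc25a37 was lower in control 3 (log2 ratio -1.37, SE 0.12, edgeR adjusted p = 3.91e-06). Genes of the same organelle thus differed in opposite directions.

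The membrane skeleton and surface proteins of red cells were expressed with 1 exception. Of 28 genes, 27 reached 1 CPM in each library. Aqp1, the water channel of adult red cells, had no read in any, and its transcript was unique in 100% of its 50-base words. Slc4a1 led by count, and the Rh proteins Rhd (615, 492 and 684 CPM) and Rhag (611, 583 and 611 CPM) were among the highest members. Between title sets the log2 ratios of the 27 tested genes ran from -1.11 to 3.59, with a median of -0.16. Sptb (named Spnb1 in the tables), which encodes beta spectrin of the membrane skeleton, stood at 133, 119 and 291 CPM and was higher in control 3.

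Cytosolic proteins of red cells were led by Car2, Gpx1 and Prdx2, with Bpgm, the enzyme that makes 2,3-bisphosphoglycerate, at 837, 836 and 1246 CPM. Hemgn (hemogen, a nuclear protein of blood precursors) stood at 1202, 1051 and 832 CPM. Of 16 genes in the tables, 12 reached 1 CPM in all libraries. Car1, the carbonic anhydrase of adult red cells, had 0, 0 and 0.404 CPM, and Isg20, an exonuclease, had no read. In the edgeR test the log2 ratios of 14 genes ran from -1.29 to 3.20, with a median of -0.44. Car2 was not called (log2 ratio -1.29, SE 0.22, adjusted p = 0.0533), although control 3 was below both other libraries, which themselves differed.

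The regulators of erythroid genes were present at far lower levels than the products. Of 25 transcription factors and cofactors, 21 reached 1 CPM in each library, and the list summed to 1682.5, 1672 and 3056 CPM. Gata1 was the leading factor of the unlettered pair. Klf1, the activator of beta-like globin genes, stood at 76.2, 58.6 and 776 CPM and was the leading factor of control 3, with a log2 ratio of 3.23 (SE 0.17, edgeR adjusted p = 9.76e-08). Hmgb3, a chromatin protein, stood at 258, 286 and 440.0 CPM, and Gfi1b, a repressor that works with GATA1, at 151, 156 and 209 CPM. Zfpm1, the GATA1 cofactor FOG1, stood at 8.25, 6.62 and 140 CPM, while Klf13 stood at 162, 158 and 37.3 CPM. Over the 22 tested factors, the log2 ratio of control 3 to the unlettered pair ran from -2.99 to 3.95, with a median of 0.41. Bcl11a and Sox6, which repress embryonic globin genes in definitive cells, stayed below 1 CPM in each library, at 0.129, 0.0933 and 0 CPM and at 0, 0 and 0.353 CPM. Nfia stayed below 1 CPM as well, at 0.645, 0.0933 and 0.0505 CPM. Bcl11a had 1, 2 and 0 reads and Sox6 0, 0 and 7, so both were at or near the limit of what this depth can show.

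Erythropoietin signalling genes were expressed at low levels. Of 16 genes, 13 reached 1 CPM in each library. Bcl2l1, which encodes the survival protein BCL-XL, was the highest member in controls 1 and 2 (119.8, 119 and 72.2 CPM), and Epor in control 3. Jak2, the kinase bound to the receptor, stood at 37.8, 32.3 and 62.9 CPM, the adaptor Gab1 at 34.2, 52.2 and 41.6 CPM, and Stat5b, a factor that JAK2 activates, at 14.95, 23.0 and 60.6 CPM. The feedback inhibitor Socs1 and the phosphatase gene Ptpn6 stayed below 1 CPM in all libraries. Over the 15 tested genes, the log2 ratio of control 3 to the unlettered pair had a median of 0.91, from -1.02 to 1.94. Epor itself was not called (log2 ratio 0.91, SE 0.73, edgeR adjusted p = 0.575), as the unlettered pair differed.

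Genes of stem and progenitor cells were low. Of 17 factors and receptors, 1 reached 1 CPM in each library, Csf2rb, the shared receptor chain for IL-3, IL-5 and GM-CSF, at 190, 243 and 210.1 CPM. The other 16 were at or below 4.897 CPM. Kit, the receptor for stem cell factor, stood at 0.387, 1.12 and 0.505 CPM, Gata2 at 0.774, 0.233 and 0.0505 CPM and Myb at 0, 0.327 and 1.01 CPM. Runx1 reached 2.84, 0.606 and 4.897 CPM.

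The cells carried transcripts of the division machinery. Of 37 cell cycle genes, 35 reached 1 CPM in each library, and their sum was 7292, 7115 and 9905 CPM. Mki67, the proliferation antigen, stood at 796, 644 and 708 CPM, Rrm2, a ribonucleotide reductase subunit, at 576, 493 and 502 CPM, and Ccnb1, mitotic cyclin B1, at 481, 504 and 430.4 CPM. Among the D-type cyclins, which drive entry into the cycle, the pattern was one-sided. Ccnd3 stood at 197, 101 and 1012 CPM and Ccnd2 at 73.0, 80.6 and 102 CPM, while Ccnd1 stayed below 1 CPM at 0.902, 0.513 and 0.606 CPM. Cdk6 had 0, 0 and 0.202 CPM, whereas its relative Cdk4 stood at 305, 361 and 362 CPM. Over the 36 tested genes, the log2 ratio of control 3 to the unlettered pair ran from -0.83 to 2.46, with a median of -0.008. Ccnd3 was not called (edgeR adjusted p = 0.333), since controls 1 and 2 differed by close to 2-fold.

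Histone genes of the replication-dependent clusters were low in this poly(A)-selected RNA, with a sum of 157, 178 and 177 CPM. Of 68 genes, 10 reached 1 CPM in each library and 41 in none. The highest, Hist1h4d, stood at 76.2, 81.9 and 47.8 CPM. The replacement histone H2afz, which encodes H2A.Z and has a poly(A) tail, stood at 1573, 1544 and 1781 CPM. H3f3a, a gene for histone H3.3, stood at 529, 498 and 949.8 CPM and H3f3b, the other, at 381, 451 and 465 CPM. H2afx, the histone variant that marks DNA breaks when phosphorylated, stood at 6.70, 5.27 and 243 CPM. It had the largest ratio of the 7 tested replacement histones, 5.06 on the log2 scale (SE 0.25), and the median of the 7 was 1.06.

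Ribosomal protein genes were the largest class after the globins among those measured, and nearly all of its tested members were lower in control 3. The 84 cytosolic ribosomal protein genes held 8.27%, 8.29% and 4.59% of the counts, or 15.1%, 14.9% and 7.30% of those outside the globins. Of 80 tested, 72 were lower in control 3, 2 were higher and 6 were not called, and the median log2 ratio was -1.19. The 2 that were higher were Rpl13, at 227, 266 and 1844.5 CPM, and Rps2, at 383, 384 and 1942 CPM. Many of these genes have processed pseudogenes, and the median share of unique 50-base words over the 84 transcripts was 50.7%, so the counts depend on how reads from copies were assigned, whose part in the difference was not tested. Rpl26 had no read in any library, with 38.96% of its words unique, although every ribosome holds its product. Mitochondrial ribosomal proteins did not share this shift: over 76 tested genes the median log2 ratio was -0.08, near the 0.0069 of all tested genes.

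Over 25 translation factors, the log2 ratio of control 3 to the unlettered pair had a median of -0.57, from -1.96 to 2.265. After Eef1a1 the leading members were Eif5a (999, 1146 and 2906 CPM), Eef2 (1763, 1838 and 767 CPM) and Eif1 (1370, 1098 and 976 CPM). The elongation factors Eef1a1, Eef1b2, Eef1d, Eef1g and Eef2 were all lower. The chaperones were mixed, with a median log2 ratio of -0.06 over 25 tested genes. Ppia, cyclophilin A, stood at 1665, 1745 and 3194 CPM, and Hsp90aa1 was steady at 1179, 1189.5 and 1336 CPM. The stress-inducible chaperone genes Hspa1a and Hspa1b were at 0 in the unlettered pair and at 0 and 0.858 CPM in control 3, with 33.7% and 37.7% of their 50-base words unique.

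Of 19 tested genes of glycolysis, 1 was higher and 3 lower in control 3, so together they were called about as often as all tested genes (13.7% and 7.67%). Ldha, lactate dehydrogenase A, stood at 903, 1160.0 and 974 CPM and Gapdh at 651, 708 and 738 CPM, whereas Ldhb, the form of heart muscle, had 0, 0 and 0.0505 CPM. Pklr, the pyruvate kinase of liver and red cells, stood at 341, 349 and 205 CPM beside Pkm2, the other pyruvate kinase gene, at 172, 214 and 187 CPM. The antioxidant enzymes included wider differences. Sod1, the copper-zinc superoxide dismutase, stood at 1072, 1352 and 85.5 CPM (log2 ratio -4.12, SE 0.16, edgeR adjusted p = 6.71e-09), and Gclm, a subunit of the enzyme that starts glutathione synthesis, at 37.6, 39.4 and 533 CPM (log2 ratio 3.49, SE 0.16, edgeR adjusted p = 2.8e-10). Of the 17 genes, 5 were higher and 5 lower in control 3. Prdx6 and Prdx1, both peroxiredoxins, stood at 1281, 1444 and 1093 CPM and at 855, 799.8 and 919 CPM. Subunits of the respiratory chain and ATP synthase encoded in the nucleus were detected in 78 of 86 cases, and Psma3, the proteasome gene with the highest count, stood at 499.9, 473 and 424 CPM.

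Markers of other cell types were at the limit of detection in all but a few cases. In bulk RNA, fewer cells of a type and less RNA per cell cannot be told apart. None of 20 macrophage, 20 lymphoid, 17 granulocyte and mast cell, 16 cardiac and skeletal muscle, 14 yolk sac endoderm and placental or 12 germ cell and pluripotency markers reached 1 CPM in every library. The lymphoid list summed to 1.03, 1.91 and 0.454 CPM, with Cd3e and Pax5 at 0 in all 3, and the list of yolk sac endoderm and placenta to 0.387, 0.42 and 0.303 CPM. Macrophage markers summed to 3.22, 2.099 and 12.975 CPM. The complement gene C1qc had reads in control 3 alone, at 2.98 CPM, while Adgre1 (named Emr1), which encodes F4/80, had none in any library. Endothelial markers summed to 4.77, 3.78 and 20.1 CPM, led by Egfl7 at 2.84, 2.99 and 11.4 CPM, with Cdh5 (VE-cadherin) at 0 in each.

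A small group of megakaryocyte and platelet markers, 4 of 15, were present in every control library. Itga2b, the integrin CD41, stood at 6.32, 7.70 and 22.8 CPM, Itgb3, its partner chain, at 10.96, 21.6 and 13.4 CPM, Tubb1, the platelet beta tubulin, at 15.3, 9.61 and 5.91 CPM, and Gp9 at 5.29, 4.71 and 4.998 CPM. Their companions Gp1ba and Gp6 had no read, and the list of 15 summed to 41.0, 43.8 and 61.2 CPM. Among matrix genes, Fn1, fibronectin, stood at 42.7, 17.9 and 31.8 CPM and Col5a1, a collagen chain, at 11.5, 6.02 and 57.2 CPM, whereas Col1a1 had at most 0.0505 CPM and Dcn, decorin, none. Tubb3, a beta tubulin best known from neurons, stood at 10.96, 17.4 and 5.35 CPM with Sox2 and Cdh1 at 0. In each of these lists a small number of genes carried the sum, and the part that other cells played in them was not tested.

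**Figure D4:**
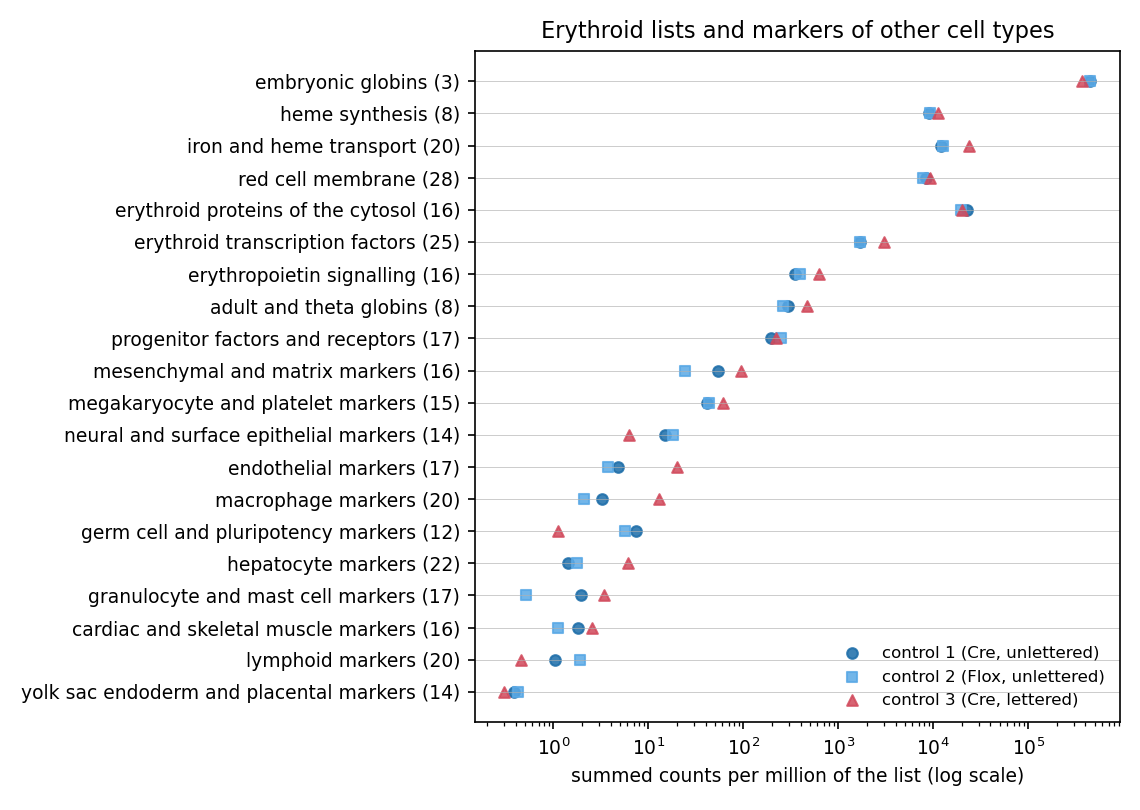
Points give the summed CPM (log scale, horizontal axis) of each erythroid list and each list of markers of another cell type, with the number of genes in parentheses and one symbol per control library. Lists of heme, iron, membrane and cytosol genes lie between 7817 and 23488 CPM, and the hepatocyte, granulocyte, muscle, lymphoid and yolk sac lists lie at or below 6.06 CPM.

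Several large tissue-restricted families were near absent. In all, 8220 of 23284 genes reached 1 CPM in each library, 13170 stayed below it in each and 6911 had no read in any. Of 1123 olfactory receptor genes, 1119 stayed below 1 CPM in each library and 959 had no read. The exceptions detected throughout were Olfr613 (14.2, 16.7 and 3.33 CPM) and the pseudogene Olfr856-ps1 (24.6, 13.4 and 4.998 CPM). Of 339 vomeronasal receptor genes, 337 stayed below 1 CPM, and Vmn2r-ps129, a pseudogene at 16.4, 18.2 and 2.73 CPM, was the highest. All 40 Hox genes, 38 taste receptors, 35 voltage-gated potassium channel genes, 52 keratin-associated proteins and 61 defensins stayed below 1 CPM, and the 20 major urinary protein genes had no read.

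A few families were silent with housekeeping or erythroid exceptions. Of 102 cytochrome P450 genes, 97 stayed below 1 CPM, and the 2 found in every library were Cyp51 of sterol synthesis (41.6, 50.1 and 65.6 CPM) and Cyp20a1 (22.4, 19.7 and 23.0 CPM). Among 47 keratins, Krt10 was found in every library, at 1.29, 1.91 and 3.64 CPM. Col18a1, at 18.3, 17.6 and 63.1 CPM, led the 43 collagen genes. Of 622 microRNA genes, 613 stayed below 1 CPM, and the 6 found throughout included Mir144 (3.61, 1.21 and 1.77 CPM) and Mir451 (3.35, 4.48 and 3.89 CPM), the erythroid pair, and Mir17hg (25.4, 20.6 and 11.006 CPM), the host transcript of a cluster linked to cell growth. Poly(A) selection does not capture mature microRNAs, so these counts do not measure them. Chemokine, interleukin, clustered protocadherin, and GABA and glutamate receptor genes had 1, 0, 0 and 0 members at 1 CPM in every library. Zfp genes, in contrast, were mostly expressed at low levels, with 221 of 367 detected throughout and a median of 2.97, 3.17 and 3.33 CPM. Of 355 solute carriers, 130 were detected throughout and 178 stayed below 1 CPM, and Slc4a1 was the highest.

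Some of the widest differences between the title sets lay outside the erythroid lists. Tsnax, which encodes translin-associated factor X, had 0, 0 and 2266 reads. Klk14, a kallikrein protease, had 0, 1 and 553 reads, and Nrtn, neurturin, 0, 4 and 475. Rnf126, a ubiquitin ligase, stood at 0.902, 0.793 and 74.4 CPM, and Junb, a subunit of AP-1, at 0.129, 0.187 and 12.2 CPM. Scand1, C1qtnf4 and Hist1h2ae followed with 280, 660 and 250 reads in control 3 and at most 5 in each unlettered library. In the other direction, Ctse, cathepsin E, stood at 358, 332 and 0.858 CPM (log2 ratio -8.94, SE 0.25, edgeR adjusted p = 1.96e-12). Ccdc82 (276 and 790 reads), Vamp7 (199 and 976 reads), Mia3 (204 and 651 reads), Brox (181 and 679 reads), Aida (162 and 357 reads), Taf1a (100 and 232 reads) and Cdh4 (96 and 210 reads) had no read in control 3, although more reads were assigned to genes there than in control 1. These 16 genes were picked for the largest ratios in each direction among the genes that edgeR called. That all of them were called was thus set by the choice and is no further result. Their edgeR adjusted p values lay between 1.96e-12 and 0.000503.

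**Figure D5:**
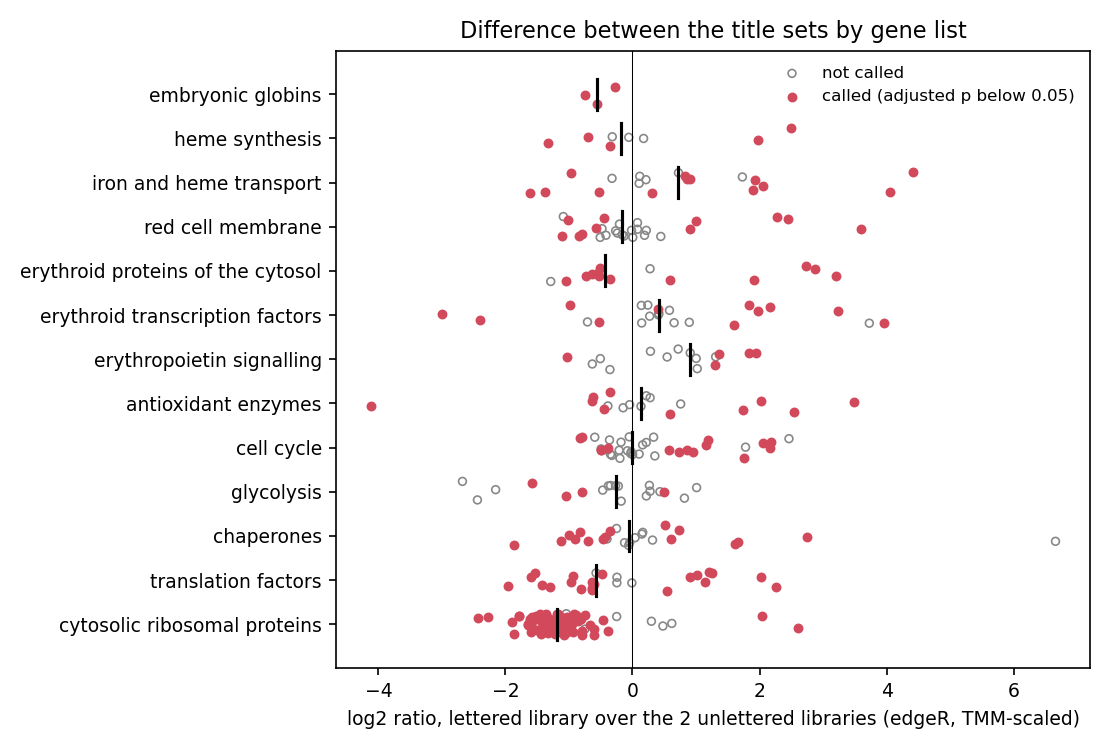
Points give the log2 ratio of the lettered library over the 2 unlettered libraries (horizontal axis, edgeR with TMM scaling) for each tested gene of 13 lists, filled where the adjusted p was below 0.05, with a bar at each list's median. The cytosolic ribosomal proteins lie to the left with a median of -1.19, and the iron and heme transport list to the right with 0.72.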

How the data were processed

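Gene counts were taken from the 3 control libraries alone; null libraries were not used. The authors deposited whole-number counts per gene symbol, 1 table per library. Per the submitters' processing notes, reads were handled with HTSeq 0.6.1, TopHat2 2.1.0, Trimmomatic 0.32, FastQC and edgeR on build mm9. The strand setting is not stated in the sources used here, so overlapping genes cannot be told apart. Lines naming no gene were dropped (no feature 42.9% and 7.72%, no unique alignment 24.1% and 22.5%, ambiguous 0.657% and 2.17% in controls 1 and 2), and 25 symbols turned into dates were restored. No symbol of the mitochondrial genome was among those used. CPM is the count over the sum of gene counts, times 1000000.

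Members and lists were chosen with earlier results of these data known. Of 463 list entries in 27 lists, 460 matched a symbol (older names through RefSeq synonyms); 25 further classes were taken from symbol patterns. Named genes were the 15 among the 30 highest in both title sets, the 4 highest of each list, erythroid-list members below 1 CPM and other-cell markers at 1 CPM or more throughout, the 8 largest ratios in each direction among called genes with 10 CPM or more, the markers, Setd8, Epor and the highest gene of each class; others were chosen after their values were seen, and some genes that the rule names are not reported here. Per-length values divide counts by the GENCODE M21 principal transcript (22825 genes, 99.5% of counts). Uniqueness is the share of a transcript's 50-base words found in no other GENCODE transcript. Promoters came from RefSeq (GRCm38.p6), which held 4 of the 6 markers.

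Control 3 was compared with controls 1 and 2 by edgeR 4.0.16 in R 4.3.3 (filterByExpr, TMM factors 0.923, 0.944 and 1.148, glmQLFit with robust=TRUE, glmQLFTest, 2-sided, Benjamini-Hochberg 0.05; 1 residual degree of freedom; common coefficient of variation 0.405), tested on simulated data. Ratios of genes at 0 on one side depend on the prior count and are not printed. Intervals are exact (Clopper-Pearson). The pairs of libraries differed by a chi-square of 21.9, 159.2 and 291.4 per degree of freedom, so none was a duplicate. Alternatives were DESeq2 1.42.0, other size factors, filters and detection limits.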

Additional observations from a re-analysis of the deposited data

How the results depend on the processing

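The globin share depended on what was counted. With embryonic globins alone it was 37.053% in control 3, and without Beta-s, an alternative chosen after seeing the data, 37.065%; adult and theta globins alone gave 0.0278% (mean of controls 1 and 2) and 0.0468% (control 3). Per length it was 66.7% and 61.8%, and over all lines of the table, unassigned reads included, 22.3% in the unlettered pair. Leaving out 1 unlettered library gave 44.41% to 45.18%. The number of genes at 1 CPM or more throughout stayed between 7527 and 9410 under the other limits, scalings and thinning, and between 8467 and 8528 with 1 library left out; genes shared among the 30 highest numbered 13 to 19. Between title sets, the alternatives called 1295 to 1490 genes higher and 691 to 1039 lower in control 3, and the called genes shared with the 2257 of the reported test numbered 1980 to 2236. No called gene among those named changed direction in the alternatives run. Of the genes not called, 12 lost or changed the sign of their ratio without control 1 and 27 without control 2, Rhd and Gab1 among the latter, and 2 to 4 did so under other size factors or filters. DESeq2 lost the call of 11 of 307 genes and gained 6. Without an unlettered library the ratios carry no test, since no residual degree of freedom is left. No paired analysis was possible because the labels give no replicate numbers. Depth limits the near-absent genes: 3 reads in control 1 are worth 0.387 CPM, so members below that level cannot be ordered. The single lettered library is assumed to vary like the unlettered pair.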

Other observations

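Some of the genes at 0 in control 3 are neighbours. In all, 6 genes had no read there and at least 10 CPM in both unlettered libraries, and 4 of them, Brox, Aida, Mia3 and Taf1a, follow one another among the expressed genes in RefSeq order, at 10.8 to 31.7 CPM in controls 1 and 2. The other 2, Ccdc82 and Vamp7, stand alone. Only 1 gene, Tsnax, had no read in both unlettered libraries and at least 10 CPM in control 3. The cause of these gaps was not tested.

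Enzymes that attach ubiquitin were among the classes with many higher genes in control 3. Of 32 tested genes named Ube2, 13 were higher and 4 lower, against 13.7% and 7.67% of all genes, with a median log2 ratio of 0.44. Ube2l6, the member with the highest count, was among the lower ones, at 987, 874 and 799 CPM. Solute carriers gave 25 higher and 8 lower of 182, and Zfp genes 10 higher and 22 lower of 299. Nuclear-encoded subunits of the respiratory chain and ATP synthase gave 11 higher and 20 lower of 78, with Atp5b among the higher.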
